A study of Mus musculus with 8 samples.

Results

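The genes of the MHC class II presentation pathway were followed in pancreatic tumors grown in mice with and without complement C3. The 8 members were chosen by gene symbol, and all 8 were present among the 29968 genes of the table: H2-Aa, H2-Ab1, H2-Eb1, Cd74, Ciita, H2-DMa, H2-DMb1 and H2-Oa. Bulk RNA sequencing had been performed on 8 orthotopic KPC tumors, 4 from WT hosts and 4 from C3-/- hosts, each a separate tumor, with 13266029 to 23354212 counts per tumor. The hosts were male, 12 weeks old and C57BL/6J, either wild-type (WT) or C3-null (C3-/-). Every host received 250000 KPC FC1245 cells in 50 μL PBS into the tail of the pancreas. FC1245 is a single cancer cell line, started from a pancreatic tumor of a mouse that carried Pdx-1-Cre and the allele LSL-Trp53 R172H/+ among its engineered alleles. The deletion was therefore in the host only, and the implanted cancer cells, the same line in both groups, kept their own C3 gene. The comparison asks how host C3 loss relates to class II transcripts in the whole tumor.

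MHC class II molecules carry peptides from engulfed proteins to the surface of dendritic cells, B cells and macrophages, where CD4 T cells read them. An alpha and a beta chain assemble with the invariant chain, which blocks the groove until the endosome. There DM exchanges the remnant of the invariant chain for peptide, and DO restrains DM. CIITA is the transactivator that switches the whole set on, constitutively in professional antigen-presenting cells and after interferon gamma in many other cells. C57BL/6 mice carry the b haplotype, in which the I-E alpha chain is not made, so H2-Eb1 has no classical partner there and I-A, built from H2-Aa and H2-Ab1, is the classical class II molecule.

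C3 itself separated the hosts. It reached 210, 426, 226 and 324 CPM (counts relative to the library total, with TMM normalization factors) in WT replicates 1 to 4 and 109, 134, 100 and 101 CPM in C3-/- replicates 1 to 4, without overlap. Its log2 fold change (C3-/- over WT, as in every fold change given here) was -1.42 with a standard error of 0.23. That difference had an adjusted p of 0.933 in edgeR's quasi-likelihood test and 1.2e-05 in DESeq2.

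For 5 members, RefSeq promoter windows on GRCm38.p6 were at hand, 250 bases upstream to 50 downstream of a start. Class II promoters are known for an X box, bound by the RFX complex, followed by a Y box, bound by NF-Y, and CIITA is recruited by the assembled proteins. Stretches from 160 to 31 bases upstream of the start are shown for the 4 members with a motif match there, so that the motifs can be read in place. Each is read 5′ to 3′ on the strand of its gene, and capitals mark matches to GNAACNGAT (a core of the X1 box) and to ATTGG (the core of the Y box), on either strand.

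H2-Eb1, chr17:34305707-34305836, plus strand: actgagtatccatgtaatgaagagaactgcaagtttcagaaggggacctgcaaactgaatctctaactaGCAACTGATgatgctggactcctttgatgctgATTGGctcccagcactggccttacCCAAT

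H2-DMb1, chr17:34153031-34153160, plus strand: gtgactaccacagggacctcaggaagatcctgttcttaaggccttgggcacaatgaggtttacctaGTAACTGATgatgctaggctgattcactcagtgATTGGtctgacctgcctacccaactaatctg

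H2-Aa, chr17:34287854-34287983, minus strand: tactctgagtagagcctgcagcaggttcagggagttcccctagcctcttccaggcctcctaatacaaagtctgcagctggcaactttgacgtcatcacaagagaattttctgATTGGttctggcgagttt

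H2-Oa, chr17:34092219-34092348, plus strand: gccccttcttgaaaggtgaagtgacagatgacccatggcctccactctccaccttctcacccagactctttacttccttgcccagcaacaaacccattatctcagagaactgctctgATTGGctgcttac

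Both strands of all 32851 windows were searched. ATTGG was present in at least 1 window of each of the 5 members, and in 37.4% of all windows. The longer Y box letters CTGATTGG, which contain ATTGG, were found for H2-Aa, H2-Eb1 and H2-Oa, and in 4.1% of all windows. GNAACNGAT was found for H2-DMb1 and H2-Eb1, and in 2.05% of all windows. The ordered pair, GNAACNGAT followed after 10 to 30 bases by ATTGG on the same strand, occurred in 7 windows, or 0.0213% of all. Those 7 belonged to H2-DMb1, H2-Eb1, the class II gene H2-Eb2, BC051142, Cdv3, Eif2ak3 and Slc1a4. The gap between the motifs was 24 bases in H2-DMb1 and 23 bases in H2-Eb1, with the pair lying at -94 to -57 and at -91 to -55. A match is a description of letters and was not tested as a binding site. H2-DMa had 2 windows, and the one that held ATTGG had it at -198 to -194, farther upstream than the stretches shown.

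On average every member had more transcript in C3-/- tumors, but no member passed the threshold. The classical chains, Cd74 and Ciita were 1.82 to 2.25 times as high in mean CPM, and H2-DMa and H2-DMb1 were 1.37 and 1.46 times as high. WT and C3-/- values overlapped for all 8 members, and for each of them C3-/- replicate 2 was below at least 1 WT tumor. In edgeR, 0 of the 7 members tested had an adjusted p below 0.05, against a background of 0% of 16610 genes, and 4 of the 7 (H2-Aa, H2-Eb1, Cd74 and Ciita) had an unadjusted p below 0.05 with C3-/- higher, against 3.03% of genes in that direction and 2.07% in the other. DESeq2 called none of the 8 members, against 0.0535% of 29900 genes. Groups without overlap in CPM were found for 0 of 8 members and for 3.73% of genes. In bulk tissue, fewer cells of a type and less RNA per cell cannot be told apart.

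**Figure D1:**
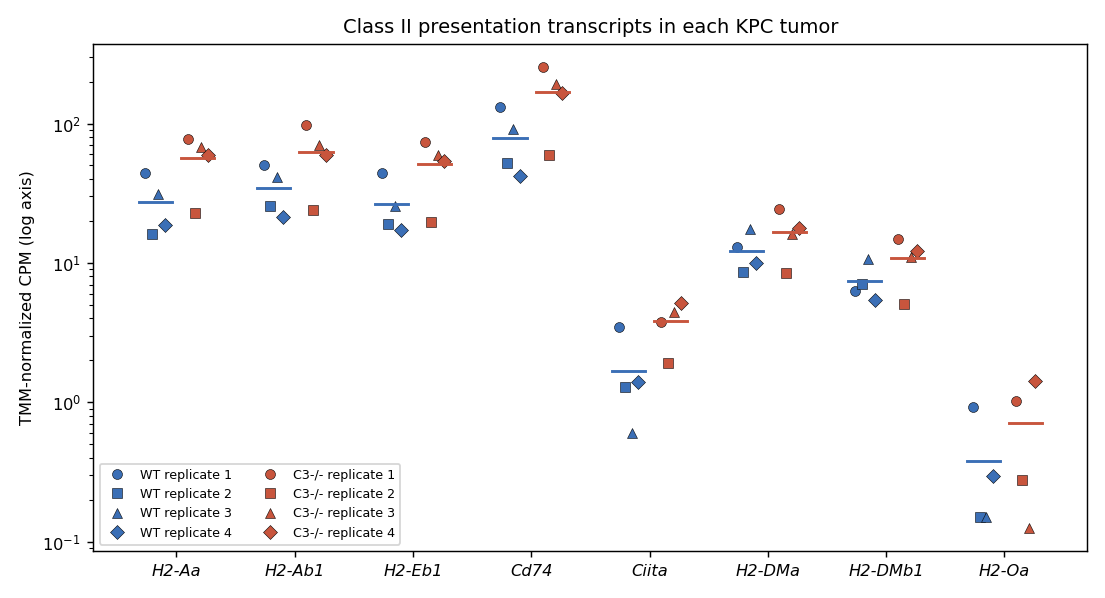
TMM-normalized CPM on a log axis for each of the 8 members in each tumor, with blue symbols for WT, red symbols for C3-/- and the symbol shape giving the replicate number. Horizontal lines are group means (n = 4), and for every member the symbols of the hosts overlap, with C3-/- replicate 2 (red square) among the WT tumors or below them.

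The I-A alpha chain gene H2-Aa (ENSMUSG00000036594, chromosome 17, 34501718 to 34506797 of mm39, minus strand) was measured at 44.1, 16.2, 31.0 and 18.7 CPM in WT replicates 1 to 4 and at 77.0, 22.8, 68.4 and 59.5 CPM in C3-/- replicates 1 to 4. C3-/- replicates 1, 3 and 4 were above every WT tumor, and C3-/- replicate 2 was below WT replicates 1 and 3. The means were 27.5 ± 12.8 CPM in WT and 56.9 ± 23.8 CPM in C3-/- (SD, n = 4 each). This corresponds to a log2 fold change of 1.05 with a 95% interval of 0.17 to 1.93 (SE 0.40). In edgeR the p was 0.0244 before and 0.965 after adjustment.

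Its partner, the I-A beta chain gene H2-Ab1 (ENSMUSG00000073421, chromosome 17, 34476663 to 34488393, plus strand), had 50.2, 25.5, 41.4 and 21.2 CPM in the WT tumors and 97.2, 24.1, 70.7 and 59.6 CPM in the C3-/- tumors. The same 3 C3-/- tumors were highest, and C3-/- replicate 2 exceeded WT replicate 4 alone. Mean H2-Ab1 was 34.6 ± 13.5 CPM against 62.9 ± 30.3 CPM (SD, n = 4 each). On the log2 scale C3-/- tumors were higher by 0.86, with a 95% interval of -0.01 to 1.74 (SE 0.39), and the edgeR p of 0.0525 became 0.971 on adjustment.

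H2-Eb1 (ENSMUSG00000060586, chromosome 17, 34524841 to 34535648, plus strand), the I-E beta chain gene, is transcribed in these mice although its alpha partner is not made. It was present at 44.3, 19.0, 25.5 and 17.2 CPM in WT and 74.0, 19.5, 59.3 and 53.6 CPM in C3-/- tumors, and again all C3-/- tumors but replicate 2 exceeded every WT tumor. The means were 26.5 ± 12.4 CPM and 51.6 ± 23.0 CPM (SD, n = 4 each). The edgeR estimate was a log2 fold change of 0.96 with a 95% interval of 0.07 to 1.85 (SE 0.40), for which p was 0.0374 and the adjusted p 0.971. The gene overlaps Gm20513 on the other strand in the table, and whether counting used strand was not stated.

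Cd74 (ENSMUSG00000024610, chromosome 18, 60936920 to 60945724, plus strand) encodes the invariant chain, which is also the surface receptor of the cytokine MIF. It reached 131, 51.8, 90.7 and 41.8 CPM in WT replicates 1 to 4 and 254, 59.6, 191 and 164 CPM in C3-/- replicates 1 to 4. C3-/- replicates 1, 3 and 4 again stood above all WT tumors, and WT replicate 1 came next. Mean Cd74 was 78.7 ± 40.5 CPM in WT and 167 ± 81.1 CPM in C3-/- (SD, n = 4 each). The log2 difference of 1.09 had a 95% interval of 0.10 to 2.08 (SE 0.44), and in edgeR p was 0.0338, or 0.971 when adjusted.

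Ciita (ENSMUSG00000022504, chromosome 16, 10297923 to 10346282, plus strand), the gene of the transactivator, rested on few reads, with 56, 17, 8 and 33 counts in WT and 80, 34, 71 and 94 counts in C3-/- tumors. In CPM these were 3.48, 1.28, 0.603 and 1.4 against 3.74, 1.90, 4.48 and 5.14. Here C3-/- replicate 4 was highest and WT replicate 3 lowest, and WT replicate 1 alone among the WT tumors exceeded C3-/- replicate 2. The means were 1.69 ± 1.24 CPM and 3.82 ± 1.4 CPM (SD, n = 4 each). Ciita had the highest fold change of the members, a log2 value of 1.16 with a 95% interval of 0.05 to 2.27 (SE 0.50). The edgeR p was 0.0416 before and 0.971 after adjustment. It overlaps Dexi on the other strand.

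The DM chains, which edit the peptide cargo, had the smallest estimates among the members. H2-DMa (ENSMUSG00000037649, chromosome 17, 34338515 to 34358075, plus strand) had 13.1, 8.59, 17.4 and 9.96 CPM in WT and 24.5, 8.51, 16.1 and 17.9 CPM in C3-/- tumors. C3-/- replicate 2 was the lowest tumor of all, and WT replicate 3 lay between C3-/- replicates 3 and 4. Mean H2-DMa was 12.3 ± 3.91 CPM against 16.8 ± 6.58 CPM (SD, n = 4 each). The 95% interval of its log2 fold change, -0.26 to 1.17 around 0.45 (SE 0.32), included 0, and the adjusted p in edgeR was 0.999 (0.186 without adjustment). H2-DMa overlaps Gm50335, Gm20493 and Brd2 on the other strand.

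H2-DMb1 (ENSMUSG00000079547, chromosome 17, 34372046 to 34379204, plus strand) had 6.34, 7.08, 10.7 and 5.45 CPM in WT and 15, 5.04, 11.0 and 12.2 CPM in C3-/- tumors. As for H2-DMa, C3-/- replicate 2 held the lowest value and C3-/- replicate 1 the highest. The means were 7.39 ± 2.30 CPM and 10.8 ± 4.19 CPM (SD, n = 4 each), and the interval again included 0 (log2 fold change 0.55, SE 0.33, -0.19 to 1.29, with p 0.130 and 0.990 after adjustment in edgeR). H2-DMb1 has a close copy, H2-DMb2, with which it shares 179 of its 1579 transcript stretches of 100 bases (11.3%), so part of its count could not be assigned with certainty. No such stretch was shared by the other 7 members with class II genes.

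H2-Oa (ENSMUSG00000024334, chromosome 17, 34311314 to 34314208, plus strand), the alpha chain of the DM inhibitor DO, was near the limit of detection. It had 15, 2, 2 and 7 counts in WT and 22, 5, 2 and 26 counts in C3-/- tumors, which is 0.933, 0.151, 0.151 and 0.298 CPM against 1.03, 0.280, 0.126 and 1.42 CPM. High tumors were WT replicate 1 and C3-/- replicates 1 and 4, and the lowest was C3-/- replicate 3, which was high for the classical chains. It alone of the members was removed by the low-count filter. Without that filter edgeR put its log2 fold change at 0.88 with a 95% interval of -0.76 to 2.51 (SE 0.77, p 0.272, adjusted 0.868), and at this depth a difference was not detectable.

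**Figure D2:**
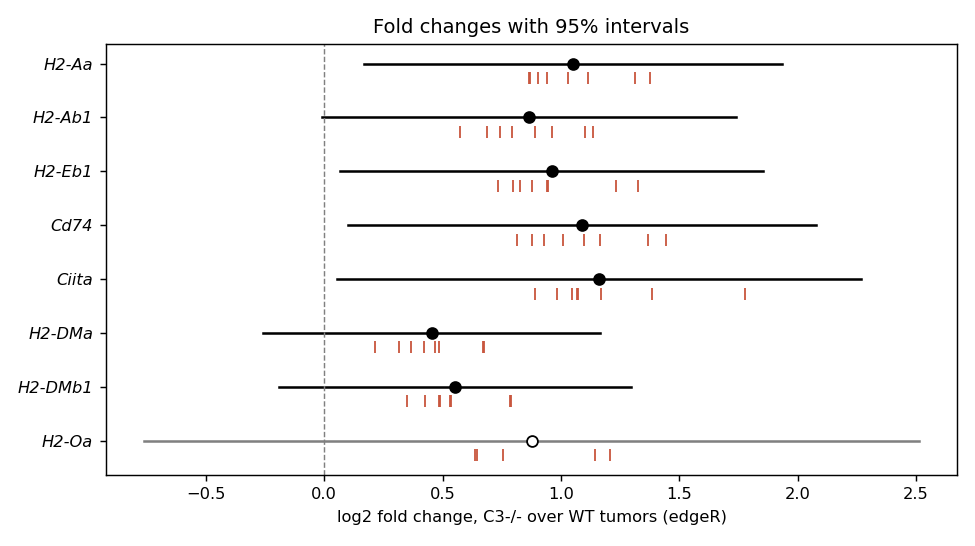
Log2 fold change of each member (circles, edgeR) with its 95% interval (lines), and below it the estimates with each tumor left out in turn (red ticks). H2-Oa, drawn open and gray, comes from the fit without a filter on low counts, and its ticks are those leave-one-out fits in which it passed the filter. All circles and ticks lie above 0, with circles from 0.45 for H2-DMa to 1.16 for Ciita and ticks from 0.21 to 1.78, and the intervals of H2-Ab1, H2-DMa, H2-DMb1 and H2-Oa include 0.

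Over all 16610 genes tested the median log2 fold change was near 0, and 0.578% of genes had a higher fold change than Ciita, 0.741% than Cd74, 0.885% than H2-Aa, 1.19% than H2-Eb1, 1.66% than H2-Ab1, 5.11% than H2-DMb1 and 7.34% than H2-DMa. The median of the 7 members tested was 0.96. The members were also more variable than most genes. Their biological coefficient of variation, the edgeR estimate of spread between tumors of the same host, ran from 0.340 for H2-DMa to 0.486 for Ciita, against a median of 0.245 over all genes. Exact permutation tests on log2(CPM + 0.1), two-sided, gave p from 0.0571 for Ciita to 0.514 for H2-Oa, where the smallest p that 4 against 4 tumors allow is 0.0286. With each tumor left out in turn, 0 members were without overlap in 6 of the 8 settings, 1 (Ciita) without WT replicate 1 and 6 (H2-Aa, H2-Ab1, H2-Eb1, Cd74, Ciita and H2-DMb1) without C3-/- replicate 2, where 6.88% of all genes tested were without overlap. DESeq2, in fits added after seeing the data, called 0 members in 7 of those settings and 3 without C3-/- replicate 2 (H2-Aa, H2-Eb1 and Cd74, adjusted p 0.0348, 0.0464 and 0.0442, among 0.0944% of 29675 genes called), while edgeR called 0 members in all 8. C3-/- replicate 2 is the C3-/- tumor lowest in these members, so leaving it out had to widen their difference, and these counts give no support of their own.

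Per tumor, the members did not sort by host alone. Their summed level was 293, 130, 217 and 116 CPM in WT replicates 1 to 4 and 547, 142, 421 and 374 CPM in C3-/- replicates 1 to 4. C3-/- replicate 1 held the highest value of 6 of the 8 members and C3-/- replicate 4 of the other 2, Ciita and H2-Oa. WT replicate 4 held the lowest value of 3 members. In share of all counts, the 8 members together took 0.0117% in WT replicate 4 and 0.0524% in C3-/- replicate 1.

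**Figure D3:**
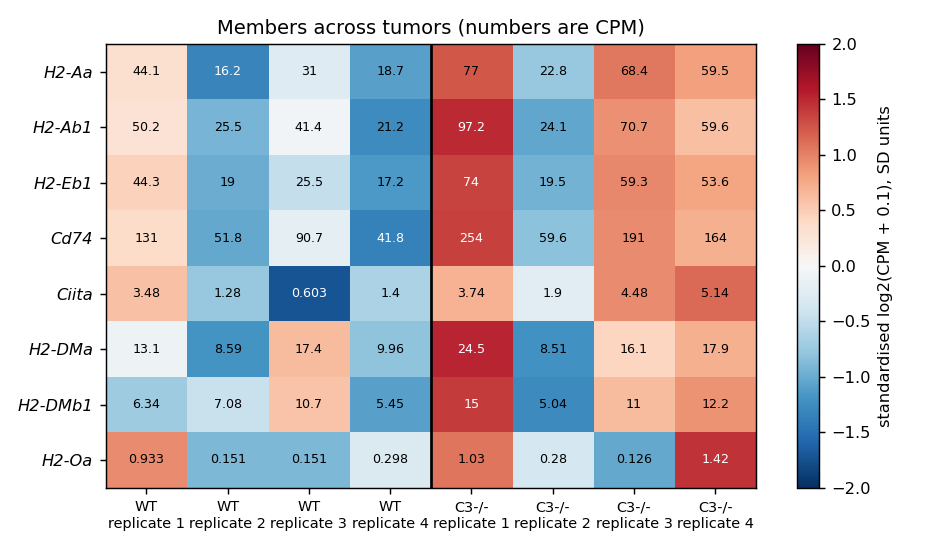
Standardised log2(CPM + 0.1) of each member (rows) in each tumor (columns), from 2 SD below the mean of the 8 tumors (blue) to 2 SD above (red), with the CPM printed in each cell. The line divides WT from C3-/- tumors, and C3-/- replicates 1, 3 and 4 are red for the classical chains and Cd74 while C3-/- replicate 2 is blue for all of them.

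The classical chains and the invariant chain varied together from tumor to tumor. Pearson's r on log2(CPM + 0.1) over the 8 tumors was 0.970 to 0.992 for the 6 pairs among H2-Aa, H2-Ab1, H2-Eb1 and Cd74, Spearman's rho was 0.929 to 1, and every pair passed (permutation p adjusted over 28 pairs at most 0.00139 for r and 0.0104 for rho). With the 2 tumors farthest from the median left out, r stayed at 0.967 to 0.992. With each host group's mean subtracted, r was 0.966 to 0.993. H2-Eb1 and Cd74 ranked the 8 tumors in the same order.

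Pairs with the DM chains, Ciita or H2-Oa had lower correlations, and the difference between correlations was not tested. The 8 pairs of a classical chain or Cd74 with H2-DMa or H2-DMb1 had r from 0.783 to 0.915, of which 5 passed by r and 1 by rho, and r was 0.607 to 0.872 without the 2 farthest tumors. H2-DMa and H2-DMb1 correlated with each other at r = 0.921. For the 7 pairs with Ciita, r ran from 0.357 to 0.792 and none passed (smallest permutation p adjusted over 28 pairs 0.0535). For the 7 pairs with H2-Oa, r ran from 0.302 to 0.638 and none passed (smallest permutation p adjusted over 28 pairs 0.121). In all, 12 of 28 pairs passed by r and 8 by rho, and the 12 became 6 without C3-/- replicate 1 and 20 without WT replicate 3. The few counts of Ciita and H2-Oa carry more counting error than those of the other members.

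Ratios within the pathway were compared between hosts for 5 pairs, and none differed past the threshold. Cd74 per H2-Ab1, in CPM, was 2.60, 2.03, 2.19 and 1.97 in WT replicates 1 to 4 and 2.61, 2.47, 2.71 and 2.76 in C3-/- replicates 1 to 4. WT replicate 1 lay among the C3-/- tumors. The mean log2 ratio was 1.13 ± 0.18 in WT and 1.4 ± 0.07 in C3-/- (SD), a difference of 0.27 with an exact permutation p of 0.0571 (two-sided, 0.286 after Benjamini-Hochberg adjustment over the 5 ratios). For H2-Aa per H2-Ab1, H2-DMb1 per H2-DMa, H2-Oa per H2-DMa and Ciita per H2-Ab1, the adjusted exact permutation p was 0.357 to 0.686.

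Per length, in FPKM (counts scaled for gene length and depth), the invariant chain was the most abundant member. Cd74 stood at 72.6 ± 44.7 FPKM over the 8 tumors (SD) and was 617th of the 29968 genes by mean. H2-Eb1 at 19.9 ± 11.1 FPKM and H2-Ab1 at 18.8 ± 10.2 FPKM followed and did not differ beyond their spread (exact sign-flip permutation p 0.365, adjusted over the 7 neighbouring pairs). Then came H2-Aa at 11.0 ± 6.18, H2-DMb1 at 5.35 ± 2.12, H2-DMa at 4.17 ± 1.59, H2-Oa at 0.386 ± 0.353 and Ciita at 0.286 ± 0.173 FPKM. H2-Oa and Ciita did not differ beyond their spread (adjusted exact p 0.758), and H2-DMb1 exceeded H2-DMa in 7 of 8 tumors (adjusted exact p 0.0219). Each of the other 4 steps in the order held in all 8 tumors (adjusted exact p 0.0137 each, from 0.00781, the smallest p that 8 tumors allow). The level of H2-Aa was thus below that of its partner H2-Ab1 in every tumor on this scale, which uses the gene lengths of the deposited table.

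The class II genes outside the 8 members had few counts. H2-DMb2, the second DM beta chain gene, had 54, 35, 30 and 26 counts in WT and 74, 38, 51 and 68 counts in C3-/- tumors, a log2 difference of 0.43 (SE 0.36) whose adjusted edgeR p was 0.999. H2-Ob, the beta partner of H2-Oa, had 37, 4, 5 and 6 counts in WT and 14, 2, 22 and 26 counts in C3-/- tumors, with WT replicate 1 highest (log2 fold change 0.14, SE 0.84, adjusted p 0.999). H2-Eb2 had 1, 0, 0 and 0 counts in WT and 6, 1, 2 and 9 counts in C3-/- tumors and did not pass the filter. H2-Ea was not analysed here.

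A list of 33 other pathway genes present in the table covered class II promoter factors, endosomal proteases, ubiquitin ligases, the ligand and co-receptor of CD74, the interferon gamma axis and the T cell side. Of the 31 tested, 0 were called in edgeR at an adjusted p below 0.05, and none by DESeq2. At an unadjusted p below 0.05, 4 were higher in C3-/- tumors and 0 lower, against 3.03% and 2.07% of all genes. In direction 17 were higher and 14 lower, and their median log2 fold change was 0.05, against 0.96 for the members.

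Among those 4 genes, Irf1 and Socs1 belonged to the interferon gamma axis, which acts on class II through CIITA. Irf1, a transcription factor induced by interferon, had 29.0, 22.0, 23.6 and 27.7 CPM in WT and 37.7, 34.6, 38.3 and 33.0 CPM in C3-/- tumors. Its host groups did not overlap, as for 3.73% of all genes tested. The log2 difference was 0.49 (SE 0.13), and the edgeR p of 0.00457 became 0.933 on adjustment. Irf1 in C3-/- replicate 2, the tumor low in members, lay within the range of the other C3-/- tumors. Socs1, a feedback inhibitor of interferon signaling, had a log2 fold change of 0.61 (unadjusted p 0.0417, adjusted p 0.971 in edgeR). The receptor chains Ifngr1 and Ifngr2 and the kinases Jak1 and Jak2 had log2 fold changes of -0.06, -0.06, -0.07 and -0.10. Ifng was not analysed here.

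Among the promoter factors, 5 of 7 were higher. Nfya, the NF-Y subunit A gene, had a log2 fold change of 0.48 (unadjusted p 0.0119, adjusted p 0.960), while Nfyb and Nfyc were at -0.06 and -0.02. The X box factors Rfx5, Rfxap and Rfxank were at 0.23, 0.06 and 0.16, with unadjusted p of 0.479, 0.783 and 0.288. Of the endosomal genes, 2 of 7 were higher and 5 lower. Ctss, cathepsin S, which trims the invariant chain, was at -0.04 (SE 0.20, 95% interval -0.47 to 0.40), and Ctsl, cathepsin L, had the smallest p of that group with a log2 fold change of -0.33 (unadjusted p 0.0960, adjusted p 0.973). Mif and its co-receptor gene Cd44, which act with CD74, were at -0.11 and 0.02. The ligase genes Marchf1 and Marchf8, whose products remove class II from the surface, were at -0.18 and 0.05. On the T cell side, the co-stimulatory ligand gene Cd86 had a log2 fold change of 0.68 (unadjusted p 0.0640, adjusted p 0.971).

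Cd4, whose product is the co-receptor that binds class II, was singled out after its values had been seen. It had 5, 5, 1 and 1 counts in WT and 33, 4, 21 and 26 counts in C3-/- tumors and did not pass the filter. As for the members' sum, C3-/- replicates 1, 3 and 4 were highest in CPM and C3-/- replicate 2 lay among the WT tumors. The WT tumors, at 1 to 5 counts, were ordered otherwise, with WT replicate 2 highest of them for Cd4. Without the filter edgeR put the log2 difference at 2.51 (SE 0.73, p 0.00377, adjusted 0.810).

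Markers of leukocytes and of other cell types were read in the same tumors. None of the 58 marker genes tested, out of 75 listed, was called in edgeR, and at an unadjusted p below 0.05, 3 were higher and 5 lower, against 3.03% and 2.07% of all genes. The 3 higher genes, Ptprc, Flt3 and Cd79a, were leukocyte, dendritic cell and B cell markers, and the 5 lower genes were mesothelial (Upk3b, Lrrn4 and Upk1b) or hepatocyte (Alb and Fgb) markers. The pan-leukocyte list (Ptprc, Cd53, Coro1a, Laptm5) summed to 171 to 204 CPM in WT and 145 to 263 CPM in C3-/- tumors, with all 4 genes higher on average. Ptprc (log2 fold change 0.52, unadjusted p 0.0235, adjusted p 0.965 in edgeR) was without overlap, as were 3.73% of all genes tested. Laptm5, the most counted of the 4, was at 0.07. The 10 macrophage markers summed to 790 to 1008 CPM in WT and 678 to 1310 CPM in C3-/- tumors, with 7 higher and 3 lower, and C1qa, the most counted, was at 0.08. Without C3-/- replicate 1, 4 macrophage markers were higher and 6 lower, and 2 pan-leukocyte genes were higher and 2 lower. The median log2 fold changes were then -0.11 and 0.0003, against 0.24 and 0.34 without C3-/- replicate 2.

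The 10 dendritic cell markers summed to 36.8 to 43.3 CPM in WT and 27.8 to 62.4 CPM in C3-/- tumors, and all 7 tested were higher (median log2 fold change 0.48). With a tumor left out, and 7 or 8 of the genes fitted, the median ran from 0.36 to 0.73. It was lowest without WT replicate 2 and highest without C3-/- replicate 2, the lowest tumor of this list. Without C3-/- replicate 4, 5 genes were higher and 2 lower. Irf8, the most counted of them, was at 0.08. Flt3, the receptor that sustains dendritic cells, had 11, 8, 9 and 17 counts in WT and 25, 14, 18 and 34 counts in C3-/- tumors. In CPM it was higher in all C3-/- tumors than in any WT tumor, where 3.73% of all genes tested were without overlap. Its log2 fold change was 0.87 (unadjusted p 0.0371, adjusted p 0.971 in edgeR). Xcr1 was at 0 counts in WT replicates 2, 3 and 4 and in C3-/- replicate 2. B cell markers summed to 2.11 to 6.41 CPM in WT and 2.41 to 8.26 CPM in C3-/- tumors, and T cell markers to 2.04 to 4.6 and 2.80 to 7.86 CPM. The 3 tested genes of each of those lists were higher on average, and the defining markers Ms4a1 and Cd3e were at 0 counts in WT replicate 2. Cd79b and Lck, the most counted B cell and T cell markers, had 146 and 212 counts over the 8 tumors together. C3-/- replicate 2 was the lowest tumor of the leukocyte, macrophage and dendritic cell lists. C3-/- replicate 3, second in members, had lower leukocyte and macrophage sums (168 and 705 CPM) than every WT tumor, and higher dendritic cell and T cell sums (51.7 and 5.99 CPM) than every WT tumor.

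**Figure D4:**
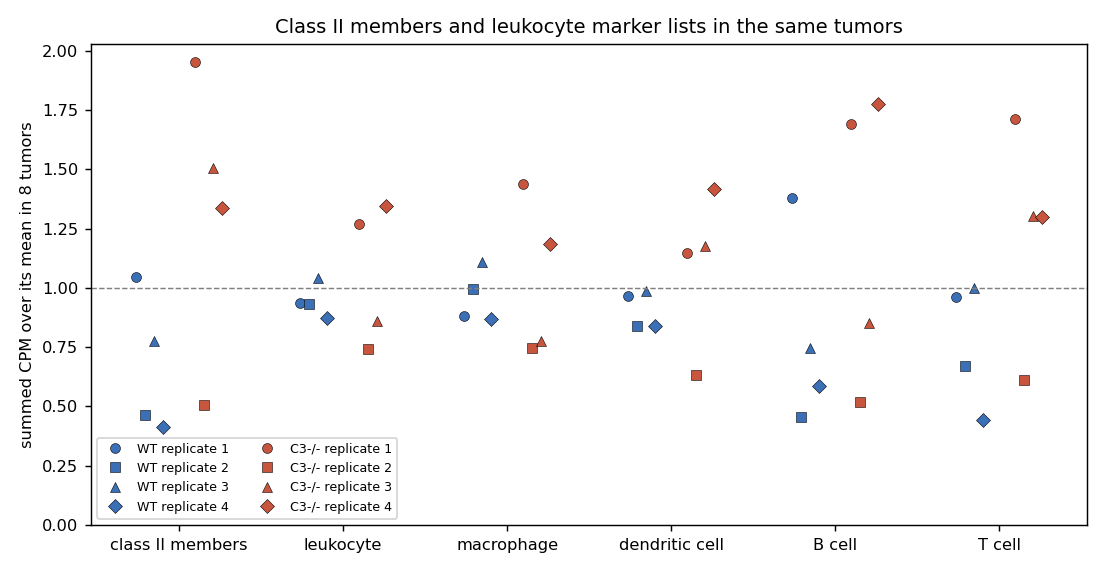
Summed CPM of the 8 members and of 5 marker lists in each tumor, each divided by its own mean over the 8 tumors (dashed line at 1), with blue for WT, red for C3-/- and the symbol shape giving the replicate number. C3-/- replicates 1, 3 and 4 are above 1 for the members, and C3-/- replicate 3 (red triangle) is below 1 for the leukocyte and macrophage lists.

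Set against the leukocyte sum of the same tumor, the members' sum was 1.6, 0.711, 1.07 and 0.680 in WT and 2.20, 0.976, 2.51 and 1.42 in C3-/- tumors. Against the macrophage sum it was 0.143 to 0.364 in WT and 0.209 to 0.597 in C3-/-, and against the dendritic cell sum 3.15 to 6.91 and 5.10 to 10.8. Host groups overlapped on each of these ratios. Markers of other tissues varied as well. All 6 mesothelial markers were lower on average in C3-/- tumors (median log2 fold change -0.93, summed level 487 to 574 CPM in WT and 368 to 550 CPM in C3-/-). Most of that sum was Msln, with 476 to 549 CPM in WT and 350 to 538 CPM in C3-/- tumors. Upk3b and Lrrn4 were without overlap, as were 3.73% of all genes tested. All 4 hepatocyte markers were lower too (median -2.28, 15.8 to 68.8 CPM in WT and 11.2 to 22.5 CPM in C3-/-), which rested largely on WT replicate 4. Without that tumor the median was -1.18, the WT sums were 15.8 to 25.3 CPM and 0 of the 4 had an unadjusted p below 0.05. Acinar markers summed to 1611 CPM in C3-/- replicate 1, the tumor highest in members, and to 3.55 to 382 CPM in the others. Skeletal muscle markers summed to 1135 to 2786 CPM in WT replicates 1 and 4 and in C3-/- replicates 1, 3 and 4, and to 0.904 to 1.73 CPM in the other 3 tumors, among them C3-/- replicate 2. The part of leukocyte, mesothelial, hepatocyte, acinar or muscle content in the members' levels was not tested.

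By the size of Pearson's r with the mean standardised level of the 7 tested members, among 15284 genes with a mean of at least 1 CPM, the most similar genes were Rab44 (0.956), Hdac10 (0.954), Rasal3 (0.953), H2ac6 (0.953), Mtfp1 (0.951), Mefv (0.937), Csf3r (0.935), Nle1 (0.932), Nts (0.929) and Psmb9 (0.928). Of the marker genes, Cd79a, a B cell receptor component with a mean below 1 CPM and therefore not ranked, had r = 0.958, and the dendritic cell marker Itgax had r = 0.893 and was 32nd. These values describe 8 tumors and carry no test, since they are the extremes of many genes. Psmb9, an immunoproteasome subunit encoded in the MHC region, had 2.86 to 5.04 CPM in WT and 2.97 to 7.77 CPM in C3-/- tumors.

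On mm39, 6 of the 8 members lie together on chromosome 17 between 34311314 and 34535648. C3 is on the same chromosome at 57510970 to 57535136, while Ciita is on chromosome 16 and Cd74 on chromosome 18.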

How the data were processed

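Poly-A RNA of 8 KPC tumors was sequenced as paired-end reads, which the authors aligned to mm39 and counted per gene. The aligner was given as STAR in their methods and as HISAT2 2.0.5 in the submitters' processing notes, and whether counting used strand was not given in the sources used here. The deposited table held raw counts, signal columns of counts divided by a size factor per tumor (DESeq2 1.20.0), and FPKM values, which equaled the size-factor-normalized counts per kilobase of the deposited gene length, scaled by the same constant in every tumor. The deposited means, log2 fold changes and p-values of the authors' own comparison were not used. Deposited counts totaled 13266029 to 23354212 per tumor, and the smallest chi-square per gene between tumors was 14.8, so no library was a repeat of another. Members and gene lists were chosen with earlier results of these data known.

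Genes passing edgeR's low-count filter (16610 of 29968, minimum count 10, at least 99.8% of the counts) were tested with TMM normalization and the quasi-likelihood test in edgeR 4.0.16 (R 4.3.3), C3-/- against WT, with Benjamini-Hochberg adjustment over all genes and a threshold of 0.05. DESeq2 1.42.0, limma-voom (limma 3.58.1), other normalization and filters, and each tumor left out were alternatives. The fits were tested on simulated data with known changes. Exact permutation tests and correlations used log2(CPM + 0.1), and the order of levels log2(FPKM + 0.01), in Python 3.11.15 with scipy 1.17.1. Genes named by rule were C3, the members, the other class II chains, the gene with the smallest p of each pathway role, the most counted gene of each leukocyte list and the 10 genes most similar to the members, with further list genes as examples. The labels gave no batch. Some genes and alleles are not reported here.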

Additional observations from a re-analysis of the deposited data

How the results depend on the processing

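Members called stayed at 0 in edgeR under each normalization, filter and tumor left out, in limma-voom, and with the replicate block, which called 0 of all genes. The labels did not say whether same-numbered tumors were paired. Correlations of same-numbered residuals were mixed (-0.03, 0.49, -0.36 and 0.59), and a pairing was not tested. Over all genes, edgeR called 0, and 0 to 4 with a tumor left out, the 4 without C3-/- replicate 1. DESeq2 called 16, and 1 (without WT replicate 4) to 116 (without C3-/- replicate 1). Called cell type markers were 0 to 3, the 3 without C3-/- replicate 1. Members without overlap numbered 0 with all tumors and 0 to 6 with a tumor left out, 1 without WT replicate 1 (Ciita, against 5.99% of all genes) and 6 without C3-/- replicate 2 (against 6.88%). Correlated pairs numbered 12, and 6 to 20 with a tumor left out, 6 without C3-/- replicate 1 and 20 without WT replicate 3. By DESeq2, in alternatives added after seeing the data, 3 members were called without C3-/- replicate 2 (28 of 29675 genes) and 1, H2-Aa, with the replicate block (adjusted p 0.0287, 4 of 29968 genes). C3 passed in DESeq2 (log2 fold change -1.42) and not in edgeR.

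The fold change of all 8 members was above 0 in each setting that gave one, 16 each for H2-Aa, H2-Ab1, H2-Eb1, Cd74, H2-DMa and H2-DMb1, 15 for Ciita and 7 for H2-Oa. With a tumor left out it ran from 0.21 to 0.67 for H2-DMa, 0.35 to 0.79 for H2-DMb1, 0.58 to 1.13 for H2-Ab1 and 0.81 to 1.45 for Cd74, each lowest without C3-/- replicate 1, and from 0.89 to 1.78 for Ciita, highest without WT replicate 1. H2-Oa and Ciita are limited by their counts, and H2-DMb1 by its close copy. Every comparison rests on 4 tumors a host.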
